A study of Homo sapiens with 6 samples.

Results

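The BCL2 family sets the threshold at which a cell commits to mitochondrial apoptosis. Read here are 10 of its genes, taken by symbol from a table of 25370 rows of gene counts, and all 10 were present. They are the anti-apoptotic genes BCL2, BCL2L1 (BCL-XL) and MCL1, the effector genes BAX and BAK1, and the BH3-only genes BCL2L11 (BIM), BBC3 (PUMA), PMAIP1 (NOXA), BID and BAD. RNA was sequenced from BE2C and Kelly cells, which are human neuroblastoma lines with MYCN amplification. BE2C cells carried either LMO1, a LIM-only transcriptional co-regulator (2 libraries), or a vector control (2 libraries). Unmodified, parental BE2C cells and unmodified Kelly cells gave 1 library each. The promoter that drives LMO1, whether the modified cells were clones, and whether paired libraries stem from different cultures are not given in the sources used here. The p-values therefore reflect library-to-library spread alone, and this may be technical.

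Effector proteins form pores in the outer mitochondrial membrane and release cytochrome c, which starts the caspase cascade. Anti-apoptotic members hold effectors and BH3-only proteins in check by binding their BH3 segment in a surface groove. BH3-only proteins relay stress to this machinery, and in neuroblastoma cells with MYCN amplification survival often depends on BCL2 or MCL1.

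The BH3 segment is printed first, because the family's proteins bind one another through it. The principal coding transcript of each gene was searched for codons of a BH3 core, read as a leucine, any 3 residues, a small residue (glycine, alanine or serine) and an aspartate. All 10 members held the pattern, as did 34.9% of 19539 coding genes, so the pattern alone does not mark the family. Capitals mark the bases that encode the core, within coding sequence from GENCODE release 29 (GRCh38), 5′ to 3′. BID had 2 matches, and the one with a glycine codon before the aspartate codon is shown. The codon before the aspartate codon is one for glycine in 8 members, for alanine in BBC3 and for serine in BAD.
BCL2: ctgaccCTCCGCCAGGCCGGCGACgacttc
BCL2L1: caagcgCTGAGGGAGGCAGGCGACgagttt
MCL1: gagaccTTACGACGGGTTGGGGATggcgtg
BAX: gagtgtCTCAAGCGCATCGGGGACgaactg
BAK1: cggcagCTCGCCATCATCGGGGACgacatc
BCL2L11: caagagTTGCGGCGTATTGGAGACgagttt
BBC3: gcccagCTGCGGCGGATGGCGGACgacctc
PMAIP1: actcaaCTCAGGAGATTTGGAGACaaactg
BID: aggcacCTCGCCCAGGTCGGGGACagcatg
BAD: cgcgagCTCCGGAGGATGAGTGACgagttt

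Depth ran from 18737591 to 59512958 counts per library, and every member had at least 162 counts in every library. LMO1 itself, the check of the labels, stood at 6.55 and 5.85 CPM (counts scaled to a common library total, after trimmed mean of M values normalisation) in the LMO1 libraries. It was at 1.05 and 0.926 CPM with vector, 1.93 CPM in parental and 94.1 CPM in Kelly cells. All 10 neuroblastoma markers examined were above 1 CPM in every library, and 7 of 9 haematopoietic markers were at or under 1 CPM in all of them. With LMO1, 3 of the neuroblastoma markers were called higher and 5 lower, and DBH, an enzyme of noradrenaline synthesis, was at 89.8 and 78.9 CPM with LMO1 and at 13.4 and 15.0 CPM with vector. Of 8 fibroblast markers, 6 were tested with LMO1 against vector, and 3 were higher and 1 lower. Their summed level was 285 and 291 CPM with LMO1, 259 and 267 CPM with vector, 358 CPM in parental and 193 CPM in Kelly cells. COL1A2 and FAP were at or under 1 CPM in every library, and the part of these markers in the results was not tested. Histone and small structured RNA genes took 4.90% to 5.28% of counts in the 4 modified libraries, 0.271% in parental and 0.257% in Kelly cells, so the single libraries stood apart from the modified ones in content.

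With LMO1, 3 of the 10 members were lower than with vector, 0 were higher and 7 did not pass the test (edgeR quasi-likelihood test, adjusted p below 0.05 over 15480 genes). In that fit 31.0% of all genes were called in either direction and 15.1% were called lower. The members' 3 of 10 is near the first share. The 3 genes were BCL2, BAX and BBC3, 1 from each role, and none of the 10 changed by 2-fold. The libraries of the groups did not overlap for 7 members, 4 lower and 3 higher with LMO1, against 63.7% of all genes. The members' median log2 fold change was -0.03, beside 0.00083 for all genes, and their median absolute value was 0.134 beside 0.172.

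BCL2, the anti-apoptotic founder of the family, was at 106 and 101 CPM in the LMO1 libraries and at 116 and 116 CPM in the vector libraries. Both LMO1 libraries lay below both vector libraries. The means were 103 ± 2.87 CPM and 116 ± 0.101 CPM (SD, n = 2 each), a log2 fold change of -0.16 (SE 0.0462, edgeR adjusted p = 0.00647). Without LMO1 replicate 2 the call was lost (edgeR adjusted p = 0.143, log2 fold change -0.13). MCL1, a short-lived anti-apoptotic protein, was the member with the most counts. It stood at 475 and 469.5 CPM with LMO1 and at 503 and 493 CPM with vector. These groups did not overlap either, but the log2 fold change of -0.07 (SE 0.0285) missed the threshold (edgeR adjusted p = 0.0571). MCL1 was called lower in 4 of 11 alternatives, with adjusted p = 0.0482 for DESeq2 size factors in edgeR, 0.0346 for limma-voom, 0.0189 for edgeR without a low-count filter and 0.0248 for edgeR without LMO1 replicate 1. BCL2L1, whose long form guards the outer membrane, was at 36.9 and 37.9 CPM with LMO1 and at 36.6 and 35.0 CPM with vector. Both LMO1 values lay above both vector values, and the log2 fold change was 0.07 (95% interval -0.08 to 0.23, edgeR adjusted p = 0.53).

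BAX, a cytosolic effector that moves to mitochondria once activated, had the largest called difference of the members. It was at 25.3 and 23.3 CPM in the LMO1 libraries and at 30.7 and 30.7 CPM in the vector libraries. The groups did not overlap. The vector libraries nearly coincided, but 2 libraries give a poor measure of spread. The means were 24.3 ± 1.39 CPM and 30.7 ± 0.0230 CPM (SD, n = 2 each), a log2 fold change of -0.33 (SE 0.0875, edgeR adjusted p = 0.00267). BAX was called lower in all 11 alternatives. BAK1, the effector that already sits in the membrane, was at 28.2 and 26.6 CPM with LMO1 and at 29.1 and 27.9 CPM with vector. These ranges overlapped, and the log2 fold change of -0.05 had a 95% interval from -0.23 to 0.12 (edgeR adjusted p = 0.707).

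Among the BH3-only genes, BBC3, a gene induced by cell stress, was at 16.9 and 18.0 CPM with LMO1 and at 22.2 and 20.7 CPM with vector. Both LMO1 values lay below both vector values. The means were 17.4 ± 0.739 CPM and 21.4 ± 1.05 CPM (SD, n = 2 each), a log2 fold change of -0.29 (SE 0.104, edgeR adjusted p = 0.0297). The call was lost with total counts as the scale (edgeR adjusted p = 0.0535), with DESeq2 (adjusted p = 0.135), without LMO1 replicate 1 (edgeR adjusted p = 0.12) and without vector replicate 1 (edgeR adjusted p = 0.193). BAD, which survival kinases hold inactive, was at 12.3 and 11.8 CPM with LMO1 and at 9.49 and 10.3 CPM with vector. The groups did not overlap, and its log2 fold change of 0.28 (SE 0.136) was not called (edgeR adjusted p = 0.11). PMAIP1, whose protein binds mainly MCL1, was at 38.1 and 37.3 CPM with LMO1 and at 34.1 and 34.4 CPM with vector. The LMO1 libraries were again the higher, and the log2 fold change of 0.14 (SE 0.0767) was not called (edgeR adjusted p = 0.156).

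For the other BH3-only genes the replicates of a group lay further apart than the group means. BID, which caspase-8 cuts below death receptors, was at 45.1 and 53.6 CPM with LMO1 and at 49.6 and 50.7 CPM with vector. The LMO1 libraries lay on both sides of the vector libraries. Its log2 fold change was -0.01 (95% interval -0.16 to 0.13, edgeR adjusted p = 0.916). BCL2L11, which responds to loss of growth factors, was at 8.48 and 9.95 CPM with LMO1 and at 9.81 and 7.33 CPM with vector. Its vector replicates differed 1.34-fold and the groups overlapped. Its log2 fold change was 0.12 (95% interval -0.19 to 0.44, edgeR adjusted p = 0.604).

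**Figure D1:**
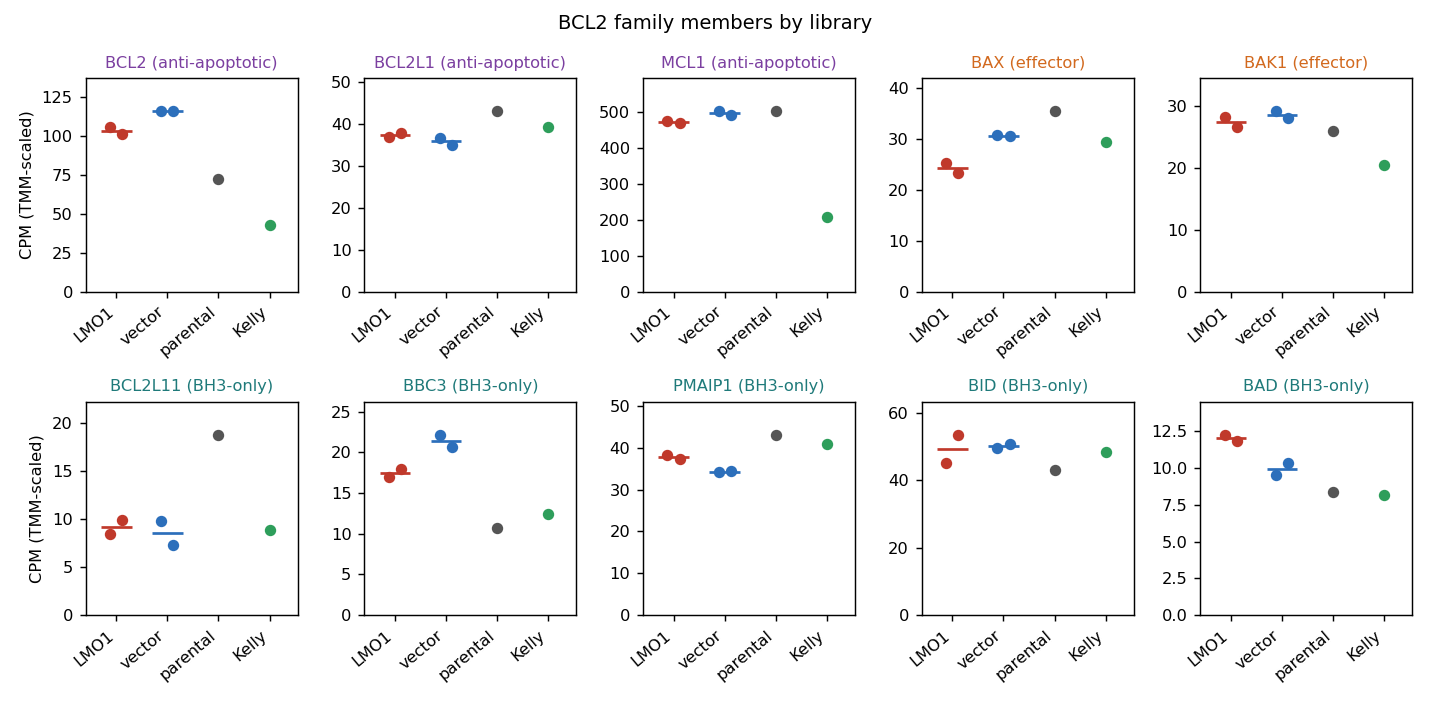
Each panel plots 1 gene, with CPM from 0 on the vertical axis, the groups on the horizontal axis, 1 point per library and a line at the mean of groups with 2 libraries. BCL2, BAX and BBC3 are lower in both LMO1 libraries than in both vector libraries, and MCL1 is at 209 CPM in Kelly against 469.5 to 503 CPM in the 5 BE2C libraries.

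**Figure D2:**
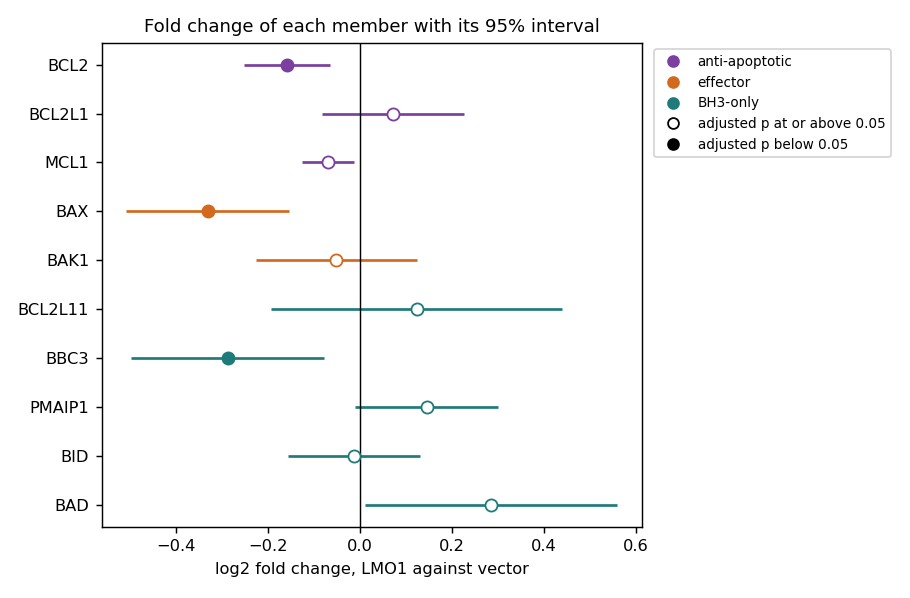
Points are log2 fold changes of LMO1 against vector (2 libraries each), and colours are the roles. Bars are 95% intervals from the edgeR fit, not adjusted for the number of genes, and filled points passed an adjusted p of 0.05. BAD (0.01 to 0.56) and MCL1 (-0.13 to -0.01) are open points though their intervals exclude 0. The filled points are BCL2 at -0.16, BAX at -0.33 and BBC3 at -0.29.

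Some counts may include reads of neighbours. In GENCODE release 29, BCL2L1, BAK1, BCL2L11, BBC3 and BAD overlap a gene on the opposite strand, MCL1 and BBC3 overlap one on the same strand, and BAK1 has 2 named pseudogenes. The strand setting of the counting is not given in the sources used here, so those reads may not be separable. BCL2 and BAX had 0 overlapping genes.

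The windows around the start sites of the 3 called genes are printed because these genes moved in the same direction. Each runs from 250 bases before to 50 bases after the start in RefSeq (GRCh38.p14), on the gene's strand, and capitals mark CACGTG, an E-box preferred by MYC and MYCN dimers. CACGTG is its own reverse complement, so both strands were read. It occurred 4 times in the BAX window, at 138, 93, 45 and 14 bases before the start. At least 1 match was present in 7.26% of 35116 promoter windows of that length, and 4 or more in 5 windows. The BBC3 window held 1 match, 232 bases before its start, and the BCL2 window held 0. Windows were matched for 9 of the 10 members, all but MCL1. Among the other 6 matched members only BID had a match, in 2 of its 5 annotated windows, and BID was not called.
BCL2, chr18:63319720-63320019, minus strand: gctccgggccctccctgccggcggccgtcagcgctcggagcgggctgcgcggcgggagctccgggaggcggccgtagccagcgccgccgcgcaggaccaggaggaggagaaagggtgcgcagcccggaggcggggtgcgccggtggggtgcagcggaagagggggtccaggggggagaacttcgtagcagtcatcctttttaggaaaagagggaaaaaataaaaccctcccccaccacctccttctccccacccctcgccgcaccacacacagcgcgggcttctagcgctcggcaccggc
BAX, chr19:48954625-48954924, plus strand: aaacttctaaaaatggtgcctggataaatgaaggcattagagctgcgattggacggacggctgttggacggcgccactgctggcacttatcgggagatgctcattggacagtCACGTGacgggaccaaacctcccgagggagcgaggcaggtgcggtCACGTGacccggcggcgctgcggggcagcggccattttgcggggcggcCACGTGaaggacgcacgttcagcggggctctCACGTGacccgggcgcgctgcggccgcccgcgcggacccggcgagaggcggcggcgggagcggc
BBC3, chr19:47232618-47232917, minus strand: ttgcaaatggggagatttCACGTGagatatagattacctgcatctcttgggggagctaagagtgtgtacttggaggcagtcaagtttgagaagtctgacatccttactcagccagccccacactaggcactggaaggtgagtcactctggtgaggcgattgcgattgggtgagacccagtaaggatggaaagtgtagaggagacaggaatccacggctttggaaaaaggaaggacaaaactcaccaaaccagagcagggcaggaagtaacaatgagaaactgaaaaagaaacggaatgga
Further motifs were searched on both strands, and not all of them are reported here. CAGGTG, another E-box, occurred 1 time in the BAX window and 0 times in the BCL2 and BBC3 windows, beside 20.59% of all windows with a match. GGGCGG, the GC box, occurred 2 times in the BAX window and 0 times in the other windows printed, beside 44.95% of all windows. TGATAA, which is bound by GATA factors, had 0 matches in the 3 windows, beside 7.53% of all windows. A match is a description of these letters, and binding was not measured.

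Kelly cells differed from parental BE2C cells most in MCL1, BCL2L11 and BCL2. Each line had 1 library, so the differences have no replicates behind them and no p-value, and intervals cover counting error only. Log2 ratios of CPM plus 1 were taken. At 2-fold, 1 of the 10 members was apart and lower in Kelly, against 28.7% of 12387 genes apart in either direction and 13.4% lower. This gene was MCL1, at 209 CPM in Kelly (exact Poisson 95% interval 205 to 212) and 503 CPM in parental cells (497 to 509), a log2 ratio of -1.27. BCL2L11 fell just short, at 8.93 CPM (8.19 to 9.72) against 18.8 CPM (17.6 to 20.1), a log2 ratio of -0.997. It passed 2-fold with a pseudocount of 0.25 CPM (-1.05) and without histone and small RNA genes (-1.02), which made 2 members in each case.

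BCL2 was at 43.0 CPM (41.3 to 44.7) in Kelly and 72.0 CPM (69.6 to 74.5) in parental cells, a log2 ratio of -0.73. Kelly lay outside the range of all 5 BE2C libraries for 4 members, below it each time, where 77.8% of all genes lay outside. These were BCL2 (72.0 to 116 CPM), MCL1 (469.5 to 503 CPM), BAK1 (20.4 CPM against 25.9 to 29.1 CPM) and BAD (8.16 CPM against 8.35 to 12.3 CPM). For BAD the counting intervals of Kelly (7.45 to 8.91 CPM) and parental cells (7.55 to 9.21 CPM) overlapped. BCL2L1 was at 39.1 CPM in Kelly, inside the BE2C range of 35.0 to 43.0 CPM. BAX (29.4 CPM), BCL2L11, BBC3 (12.4 CPM), PMAIP1 (40.8 CPM) and BID (48.6 CPM) in Kelly also lay within the BE2C range. That range pools the parental library with the 4 modified libraries, which differed from parental and Kelly in histone and small RNA content. For BCL2L11, Kelly (8.93 CPM) lay among the modified libraries (7.33 to 9.95 CPM), while parental was at 18.8 CPM. In bulk RNA, fewer expressing cells and less RNA per cell cannot be told apart.

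Parental BE2C cells were also compared with the mean of the vector libraries, and this comparison shares the vector libraries with that of LMO1. The parental library stood apart from the modified ones in histone and small RNA content. Differences of cells and of library preparation therefore cannot be told apart here. For 9 of 10 members, all but MCL1, the parental value lay outside the range of the 4 modified libraries, where 77.1% of 11727 genes did so. At 2-fold, 1 member was apart, against 11.4% of genes in either direction. It was BCL2L11, at 18.8 CPM in parental cells and 8.57 CPM as the vector mean, a log2 ratio of 1.05. Taken without vector replicate 2 the ratio was 0.87, and without vector replicate 1 it was 1.25. BBC3 lay the other way, at 10.8 CPM (9.85 to 11.7) against a vector mean of 21.4 CPM, a log2 ratio of -0.93. BCL2 was at 72.0 CPM against 116 CPM, a log2 ratio of -0.68.

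For BCL2 and BBC3 the LMO1 values lay between the vector and parental values, an ordering with the same limit. For BAX the parental library was the highest of the BE2C libraries, at 35.5 CPM (33.9 to 37.3), and the LMO1 libraries were the lowest. PMAIP1 was at 43.1 CPM and BCL2L1 at 43.0 CPM in parental cells, above the 4 modified libraries. BID at 43.0 CPM, BAK1 at 25.9 CPM and BAD at 8.35 CPM were below them. With histone and small RNA genes left out before scaling, the parental to vector log2 ratio was 1.04 for BCL2L11, -0.95 for BBC3 and -0.70 for BCL2.

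**Figure D3:**
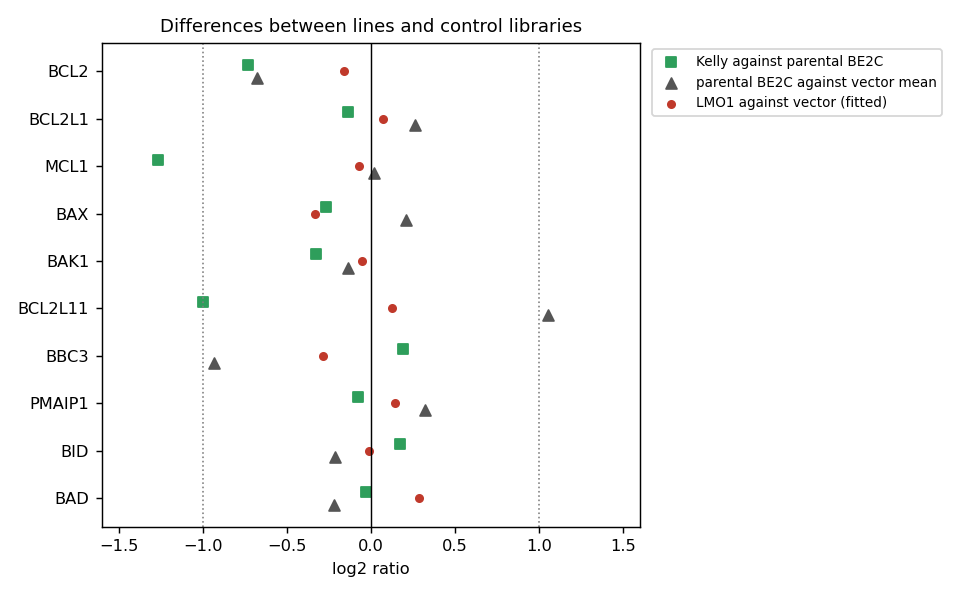
Horizontal positions are log2 ratios for Kelly against parental BE2C and parental BE2C against the vector mean (both of CPM plus 1, no test) and the fitted log2 fold change of LMO1 against vector, for each member, with dotted lines at 2-fold. The widest values are MCL1 in Kelly at -1.27 and BCL2L11 in parental cells at 1.05.

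Levels of different genes were compared as CPM per kilobase of the longest coding transcript. On this scale MCL1 stood above every other member in all 6 libraries, at 119 to 128 in BE2C libraries and 53.04 in Kelly. BCL2 was at 14.1 and 13.6 per kilobase with LMO1, 15.5 and 15.6 with vector, 9.65 in parental and 5.76 in Kelly cells. BCL2L1 ranged from 13.4 to 16.5 per kilobase over the 6 libraries. BAX ranged from 17.2 to 26.2, BID from 17.2 to 21.5 and PMAIP1 from 17.5 to 22.1 per kilobase. BCL2L11 ranged from 1.40 to 3.60 per kilobase, with a longest transcript of 5231 bases against a median of 1522 bases. In the sum of the 3 anti-apoptotic genes per kilobase, MCL1 made up 80.9% to 83.0% in the BE2C libraries and 71.9% in Kelly. BCL2L1 made up 8.69% to 10.7% in BE2C and 20.3% in Kelly, and BCL2 made up 6.27% to 10.1% in BE2C and 7.81% in Kelly. With the median transcript length in place of the longest, MCL1 made up 67.7% to 69.3% in BE2C and 52.8% in Kelly, so the shares rest on the length chosen. The levels above and the sums and ratios that follow use the longest length only.

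Summed per kilobase, the anti-apoptotic genes were at 149 and 148 with LMO1, 157 and 154 with vector, 154 in parental and 73.8 in Kelly cells. The effectors were at 31.4 and 29.2 with LMO1, 35.8 and 35.2 with vector, 37.9 in parental and 30.9 in Kelly cells. Sums of the 5 BH3-only genes lay between 55.9 and 62.6 in all 6 libraries. The Kelly library was thus low in the anti-apoptotic sum and close to the LMO1 libraries in the effector sum. The ratio of the anti-apoptotic sum to the effector plus BH3-only sum was 1.65 and 1.61 with LMO1, 1.65 and 1.63 with vector, 1.64 in parental and 0.850 in Kelly cells. The BCL2 to BAX ratio per kilobase was 0.759 and 0.792 with LMO1, 0.687 and 0.689 with vector, 0.369 in parental and 0.266 in Kelly cells. These are ratios of RNA levels, given without a test.

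**Figure D4:**
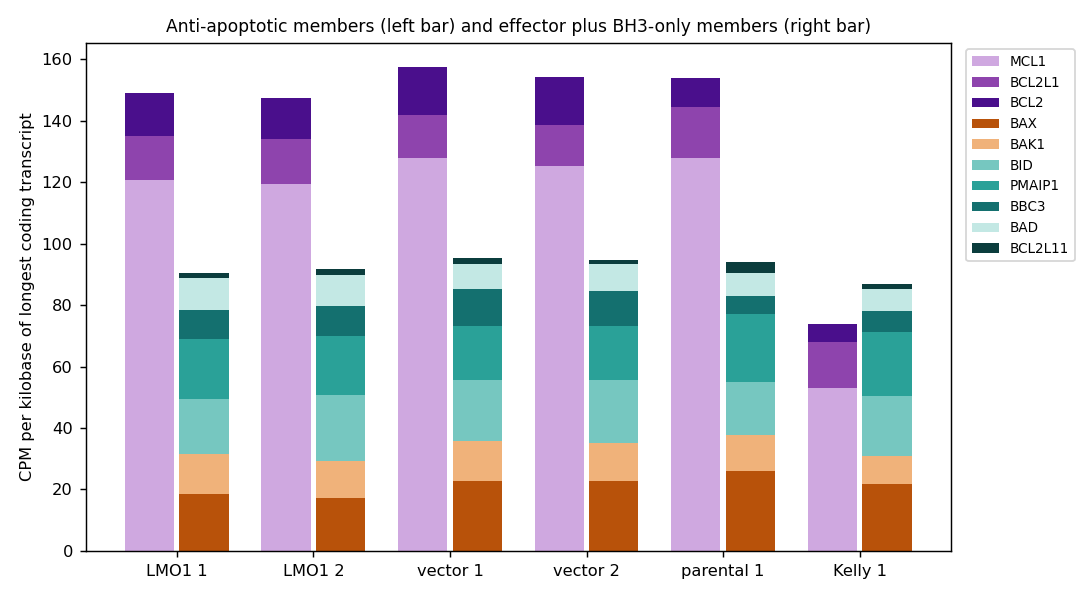
Bars give CPM per kilobase of the longest coding transcript in each of the 6 libraries for the 3 anti-apoptotic members and for the 7 effector and BH3-only members. The anti-apoptotic sum is 148 to 157 in the BE2C libraries and 73.8 in Kelly, and MCL1 is its largest segment in every library.

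The wider apoptosis pathway was read from 6 lists with 94 genes in the table, of which 84 were tested. With LMO1, 32 of the 84 were called, 19 higher and 13 lower, where 31.0% of all genes were called. With total counts as the scale the split was 25 higher and 7 lower. Over all genes the split moved in the same direction, from 2463 higher and 2334 lower to 2735 higher and 1853 lower. In the death receptor list 4 of 11 tested genes were higher and 0 lower, with a median log2 fold change of 0.13. TNFRSF10B, a TRAIL death receptor, was at 56.2 and 55.0 CPM with LMO1 and 19.7 and 22.1 CPM with vector, a log2 fold change of 1.41 (SE 0.0792, edgeR adjusted p = 7.82e-20). TNFRSF10D, a decoy receptor for TRAIL, rose by 1.02 (SE 0.119) from a mean of 10.3 to 20.7 CPM. CASP8, the initiator caspase that cleaves BID, rose by 1.26 (SE 0.273) from 1.78 to 4.24 CPM, and FAS, another death receptor, rose by 0.92 (SE 0.311) from 1.54 to 2.92 CPM. The FAS call was lost with DESeq2 and without LMO1 replicate 1, LMO1 replicate 2 or vector replicate 1 (adjusted p = 0.113, 0.0543, 0.211 and 0.199). In parental cells TNFRSF10B was at 54.0 CPM and CASP8 at 5.76 CPM. Their log2 ratios to the vector mean, 1.33 and 1.28, share the vector libraries. TNFRSF10D was at 16.8 CPM and FAS at 2.70 CPM in parental cells, also above the vector means. Rises and falls in these lists are of LMO1 against vector only. Which of the groups moved away from unmodified cells was not tested.

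Among the other BCL2 family genes 3 of 11 tested were higher and 1 lower, with a median of 0.04. BNIP3 and BNIP3L, mitophagy receptors induced by hypoxia, rose by 0.55 (SE 0.0432) and 0.63 (SE 0.0477). BNIP3 was at 158 and 152 CPM with LMO1, 106 and 107 CPM with vector and 185 CPM in parental cells. BNIP3L was at 124 and 126 CPM with LMO1, 82.4 and 80.0 CPM with vector and 161 CPM in parental cells. BMF, a BH3-only gene linked to loss of cell attachment, fell by 0.34 (SE 0.0826), from 34.7 to 27.2 CPM. It was at 28.4 CPM in parental cells. HRK, a BH3-only gene of neurons, rose by 0.65 (SE 0.242) from 2.97 to 4.68 CPM and was at 4.81 CPM in parental cells. But its vector replicates differed 1.81-fold. The log2 fold change of HRK moved to 0.29 when vector replicate 1 was left out and to 1.15 when vector replicate 2 was. The HRK call was lost with DESeq2 and without LMO1 replicate 1, LMO1 replicate 2 or vector replicate 1 (adjusted p = 0.181, 0.193, 0.137 and 0.482). The 3 genes not tested were BCL2A1, with 0 counts in all 6 libraries, BCL2L10 and BCL2L14.

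Downstream of the pore, 2 of 15 tested genes of the apoptosome, caspase and mitochondrial list were higher and 3 lower, with a median of -0.14. CYCS, cytochrome c, rose by 0.26 (SE 0.0281) from 467 to 555 CPM, and its adaptor APAF1 rose by 0.38 (SE 0.0828) from 27.8 to 36.1 CPM. DIABLO, which antagonises inhibitor of apoptosis proteins, fell by 0.20 (SE 0.0415), and VDAC2, an outer membrane channel that binds BAK1, fell by 0.15 (SE 0.0306). Parental cells had CYCS at 534 CPM and APAF1 at 47.6 CPM, above the vector means. They had DIABLO at 156 CPM and VDAC2 at 340 CPM, below the vector means of 165 and 413 CPM. CYCS and VDAC2 have processed pseudogenes, so their counts are less certain. Of 6 inhibitor of apoptosis genes tested, with a median of 0.08, BIRC3 rose by 1.81 (SE 0.300) from 1.19 to 4.11 CPM and BIRC6 fell by 0.08 (SE 0.0273). The BIRC6 call was lost with total counts, with DESeq2 and without vector replicate 1 or 2 (adjusted p = 0.146, 0.0544, 0.237 and 0.0821). Parental cells had BIRC3 at 3.14 CPM, above the vector mean, and BIRC6 at 445 CPM, below the vector mean of 599 CPM.

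Of 18 tested transcriptional regulators 1 was higher and 5 lower, with a median of -0.06. TRIB3, a pseudokinase of the ATF4 stress response, rose by 0.42 (SE 0.0440). MAX, the dimer partner of MYC and MYCN, fell by 0.28 (SE 0.0695) from 50.2 to 41.1 CPM. MDM2, a ubiquitin ligase, fell by 0.15 (SE 0.0431), and ATF4 fell by 0.09 (SE 0.0267). TRIB3 was at 86.7 CPM in parental cells, MAX at 56.5 CPM, MDM2 at 145 CPM and ATF4 at 504 CPM. Their vector means were 108, 50.2, 139 and 776 CPM. The MDM2 call was lost without LMO1 replicate 2 or vector replicate 2 (edgeR adjusted p = 0.15 and 0.0738), and that of ATF4 with total counts and without vector replicate 1 (edgeR adjusted p = 0.0598 and 0.273, the latter with a log2 fold change of -0.061).

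Of 23 tested genes that act on the turnover or modification of the proteins, 8 were higher and 3 lower, with a median of 0.05. HUWE1, a ubiquitin ligase for MCL1, fell by 0.16 (SE 0.0301). AKT1, a kinase that phosphorylates BAD, rose by 0.28 (SE 0.0441), and the stress kinases MAPK8 and MAPK9 rose by 0.20 (SE 0.0515) and 0.23 (SE 0.0572). HUWE1 was at 775 CPM in parental cells, AKT1 at 110 CPM, MAPK8 at 107 CPM and MAPK9 at 98.2 CPM. Their vector means were 421, 108, 80.6 and 64.5 CPM. Without LMO1 replicate 2, MAPK8 was not called (edgeR adjusted p = 0.0821).

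**Figure D5:**
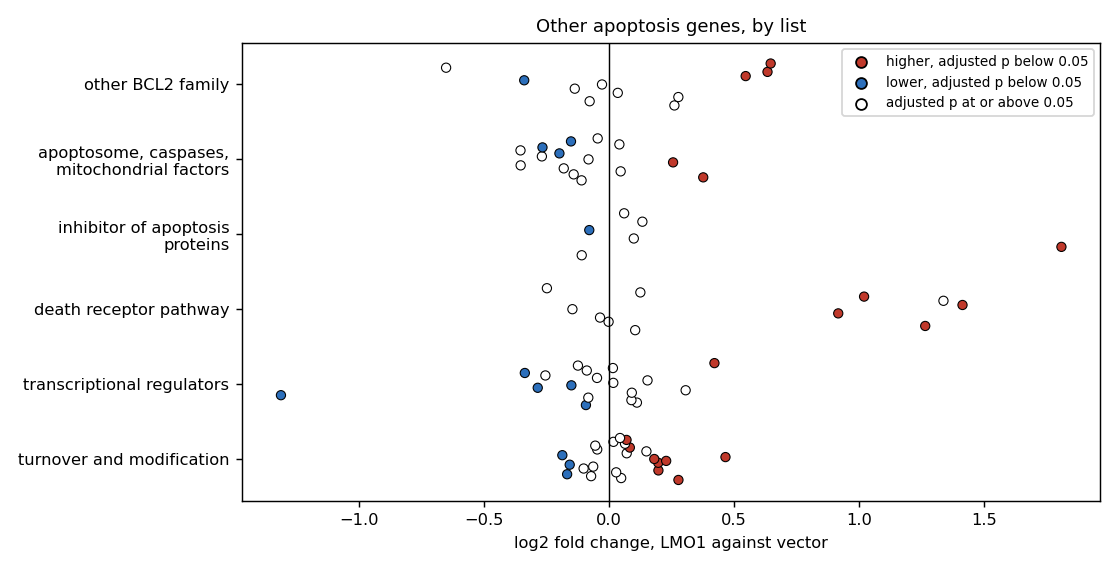
Each point is 1 tested gene of the 6 lists, placed by its log2 fold change of LMO1 against vector, with called genes coloured by direction. The called genes of the death receptor list lie from FAS at 0.92 to TNFRSF10B at 1.41, while the other lists hold called genes in both directions.

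Between Kelly and parental cells some partners of the members were at least 2-fold apart, where 28.7% of 12387 genes were. In Kelly, 1 of 9 other BCL2 family genes was higher and 0 lower. Of 15 genes in the apoptosome list 2 were higher and 3 lower, and of 5 inhibitor of apoptosis genes 0 were apart. Of 7 death receptor genes 0 were higher and 2 lower, as were 0 and 2 of 16 transcriptional regulators. Of 23 turnover genes 1 was higher and 1 lower. TNFRSF10D had 2 counts in Kelly, under the floor of 3 counts, and 805 in parental cells. Its parental to Kelly ratio was 17.3 with 1 CPM added to each side. Without that addition it was 502 (95% counting interval 139 to 4152). TP73, a transcription factor, was at 2.85 against 21.2 CPM. DIABLO was at 56.1 against 156 CPM, and ENDOG, a mitochondrial nuclease, at 1.68 against 7.56 CPM. CFLAR, an inhibitor of caspase-8, was at 34.3 against 79.5 CPM. Higher in Kelly were BOK, an effector-like member, at 13.4 against 3.83 CPM, and CASP9, the caspase of the apoptosome, at 12.7 against 3.52 CPM. PPP3CA, a calcineurin subunit, was also higher at 140.1 against 58.2 CPM, and YWHAB, a 14-3-3 protein, was lower at 189 against 443 CPM. In parental cells CASP2 was at 103 CPM against a vector mean of 37.7 CPM. DYNLL2, which tethers BMF to the cytoskeleton, was at 95.9 against 39.0 CPM. They were the only genes of their lists at least 2-fold apart in that comparison, of 14 and 23 genes, where 11.4% of 11727 genes were.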

How the data were processed

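Total RNA from 6 libraries was sequenced paired-end. The authors deposited 1 table of raw counts per gene, and per the submitters' processing notes TopHat2 2.0.6, HTSeq and hg19 were used. The strand setting is not given in the sources used here. Totals ran from 18737591 to 59512958 counts, so a floor of 3 counts is 0.157 CPM at the lowest depth and 0.0503 CPM at the highest. Such floors and Poisson intervals cover counting error only.

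LMO1 was compared with vector in R 4.3.3 with the edgeR 4.0.16 quasi-likelihood test on these 4 libraries, after TMM scaling and filterByExpr (15480 genes tested, 9890 removed), with Benjamini-Hochberg adjustment over all genes. Single libraries were compared without a test, among genes with at least 5 CPM on 1 side. Alternatives used DESeq2 1.42.0, limma 3.58.1, other scales, no filter, all 6 libraries, a replicate block and each replicate left out. The edgeR fit was also run on counts simulated with known fold changes and its own estimates of spread. That run cannot test whether this spread holds for separate cultures. The replicate differences of the LMO1 and vector groups were nearly uncorrelated (correlation -0.02). This cannot show whether libraries with the same replicate number were handled together. In the table, 28 symbols had been turned into dates, so 1 listed gene was not analysed here.

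The members and lists were chosen with earlier results of these data known. All members were named, and from each list up to 4 called genes with the lowest adjusted p, and up to 3 genes at least 2-fold apart with the largest single-library ratio, except 1 gene that is not reported here.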

Additional observations from a re-analysis of the deposited data

How the results depend on the processing

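The count of members called, 3, ranged from 2 to 4 over 11 alternatives, with 0 higher in each. Leaving out 1 replicate gave 2 to 3 members, 3493 to 3636 genes (4797 with all) and 21 to 26 companion genes (32 with all). Where this left 1 library in an arm, it was assumed to vary like the other group. DESeq2 called 2970 genes and 19 companion genes. With the replicate block, 4847 genes and 3 members were called. The log2 fold change of BID turned positive with total counts (0.014) and without LMO1 replicate 1 (0.10), and ranged from -0.15 to 0.10 with 1 replicate left out. That of BCL2L11 turned negative without LMO1 replicate 2 (-0.00099) or vector replicate 2 (-0.082), and ranged from -0.082 to 0.34. None of these values passed the test. Kelly against parental had 2 members at least 2-fold apart with a pseudocount of 0.25 CPM and 2 without histone and small RNA genes. Parental against vector had 0 to 1 such members when a vector replicate was left out, 0 without vector replicate 2. With median transcript length the lowest MCL1 share was 52.8%. Apart from what the construction of an alternative shows (fewer samples, another length), the cause of these shifts was not tested. With 2 libraries a group, BAD and BCL2L11, the members with the fewest counts, had the widest intervals.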
